A study of Mus musculus with 16 samples.

Results

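The 10 genes described here are markers of macrophages and of leukocytes in general, namely Ptprc, Csf1r, Cd68, Fcer1g, Emr1, Lyz2, C1qa, C1qb, C1qc and Tyrobp. Every probe that carried 1 of these names on the microarray was taken, which gave 14 probes of 10 genes among 55681 probes under 31982 gene names. Csf1r had 3 probes, Cd68 and Emr1 had 2 each, and the other 7 genes had 1 each. Emr1, which encodes the antigen F4/80, is called Adgre1 in current RefSeq annotation.

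The study separated atrial and ventricular cardiomyocytes of CD1 wild-type mice by surface ITGA6 (CD49f) and measured their RNA on one-color microarrays, with 4 microarrays per group. EL and EH were ERBB-2+ cells of E15.5 hearts with low and high ITGA6, each sorted from pools of 20 to 30 hearts. PL and PH were cells with low and high ITGA6 from pools of 15 P2 hearts, sorted after a kit had removed non-myocytes with magnetic beads. At least 50000 cells were sorted per sample and 10 ng of RNA was amplified. ERBB-2, the receptor used to select the embryonic cells, was not used at P2, and every P2 microarray lay on a slide that held no E15.5 microarray. Stage, selection step and slide therefore cannot be told apart. A cardiomyocyte list of 12 genes passed the background flag in every sample, with Tnnt2 at 104726 ± 7094 (SD, n = 4) in EL and 122378 ± 4802 in EH. Myl7, an atrial light chain, was at 9441 ± 496 in EL and 141491 ± 12145 in EH, and Myl2, its ventricular counterpart, at 214764 ± 10618 in EL and 97505 ± 17593 in EH. Itga6 itself was at 625.4 ± 118.6 in EL and 11872 ± 1501 in EH by the probe A_55_P2015670, but at 2289 ± 256 in EL and 3441 ± 716 in EH by a second probe, A_55_P1958840, and Nkx2-5 and Erbb2 were well above background on all 16 microarrays. For the dissociated hearts the methods mention a lysis of red cells or, for flow cytometry, a stain for CD45 and Ter119 by which blood cells were left out. The gates given for these sorts name propidium iodide, ERBB-2 and ITGA6 at E15.5, and propidium iodide and ITGA6 at P2. None of the groups was sorted for leukocytes, so the labelled cell type is the cardiomyocyte and the genes described here are markers of another cell type in these samples.

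Macrophages of the heart derive in part from yolk sac and fetal liver precursors and are present in the embryonic heart before birth. CSF1R is the receptor on which most macrophages depend for survival, and its ligands are CSF1 and IL-34. PTPRC (CD45) is a phosphatase on the surface of nearly all nucleated hematopoietic cells. FCER1G and TYROBP (DAP12) are small membrane adaptors whose cytoplasmic motifs recruit the kinase SYK once Fc receptors or TREM2 are engaged. C1QA, C1QB and C1QC are the chains of complement C1q, which starts the classical complement pathway and is made mainly by macrophages. CD68 is a protein of macrophage lysosomes, and lysozyme 2 (LYZ2) degrades bacterial cell walls.

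The probes are 60 bases long and stand for the mRNA strand. The sequences of 4 probes are shown, because these genes cover the adaptor, the complement and the lysozyme results. Positions are those of the mm9 assembly given in the scanner files, and no base is in capitals because the whole probe matters.
Tyrobp: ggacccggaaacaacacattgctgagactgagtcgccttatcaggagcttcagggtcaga
C1qa: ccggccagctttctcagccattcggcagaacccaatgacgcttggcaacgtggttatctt
C1qb: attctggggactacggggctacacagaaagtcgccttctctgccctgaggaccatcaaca
Lyz2: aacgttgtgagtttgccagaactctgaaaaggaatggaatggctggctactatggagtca
The Tyrobp probe lay at chr7:31200651-31202378 on the plus strand, an interval of 1728 bases, so the probe joins separate stretches of the genome as an mRNA does. The C1qa probe lay at chr4:136452409-136452468, the C1qb probe at chr4:136436578-136436637 and the Lyz2 probe at chr10:116719175-116719234, all on the minus strand. C1qb, C1qc and C1qa are neighbors in this order on chromosome 4 in RefSeq, with no other protein-coding gene between them. Of the remaining probes, those of Ptprc, Fcer1g, C1qc, Emr1 and Cd68 lay at chr1:139961083-139961142 (Ptprc, minus strand), chr1:173159794-173159853 (Fcer1g, minus strand), chr4:136445766-136445825 (C1qc, minus strand), chr17:57620350-57620409 and chr17:57622868-57622927 (Emr1, plus strand) and chr11:69477775-69477834 and chr11:69478979-69479038 (Cd68, minus strand). The C1qc probe had 10 spots per microarray, and the other 13 probes had 1 spot each.

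The signals are given after quantile normalization, on the linear scale of the scanner. A probe counted as well above background on a microarray where the scanner software had flagged it so, and the text says in how many of 4 microarrays that was the case. Group differences are log2 fold-changes from limma, fitted on all 16 microarrays, with Benjamini-Hochberg adjusted p over all probes. A difference was called at an adjusted p of at most 0.05 and at least 3-fold. The methods describe 4 independent experiments, and the p-values measure the spread between these pools. In sorted bulk samples, fewer cells of a type and less RNA per cell cannot be told apart.

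The E15.5 samples numbered 6 stood apart from the other samples of their groups. In EL and again in EH, sample 6 gave the highest signal for 11 of the 14 probes, against 8.41% of all probes. Of 12 erythroid genes, 6 were highest in sample 6 of both EL and EH. The same held for 7 of 12 endothelial and 4 of 8 epicardial genes, for 1 of 10 fibroblast genes and for 0 of 12 cardiomyocyte genes. The summed signal of 12 erythroid genes was 31011 in EL 6 against 3795, 4556 and 4352 in the other EL samples, and 34761 in EH 6 against 17895, 5728 and 7544 in EH 2, EH 3 and EH 8. The erythroid probe with the highest signal was that of Hba-a1, an alpha globin, at 17210 in EL 6 and 19790 in EH 6, whereas the erythroid genes Gata1 and Epb4.2 were not well above background on any E15.5 microarray. EH 2 came next after both samples 6 in erythroid signal, but was below EH 8 in Tyrobp, Fcer1g and all C1q chains. EL 6 lay on the same slide as EL 3 and EH 6, and the other 5 E15.5 microarrays lay on another slide. Since EL and EH of the same number deviated together from their group means, values with the sample number as a block, and values without both samples 6, are given below for the probes whose calls they change and for the stage differences.

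**Figure D1:**
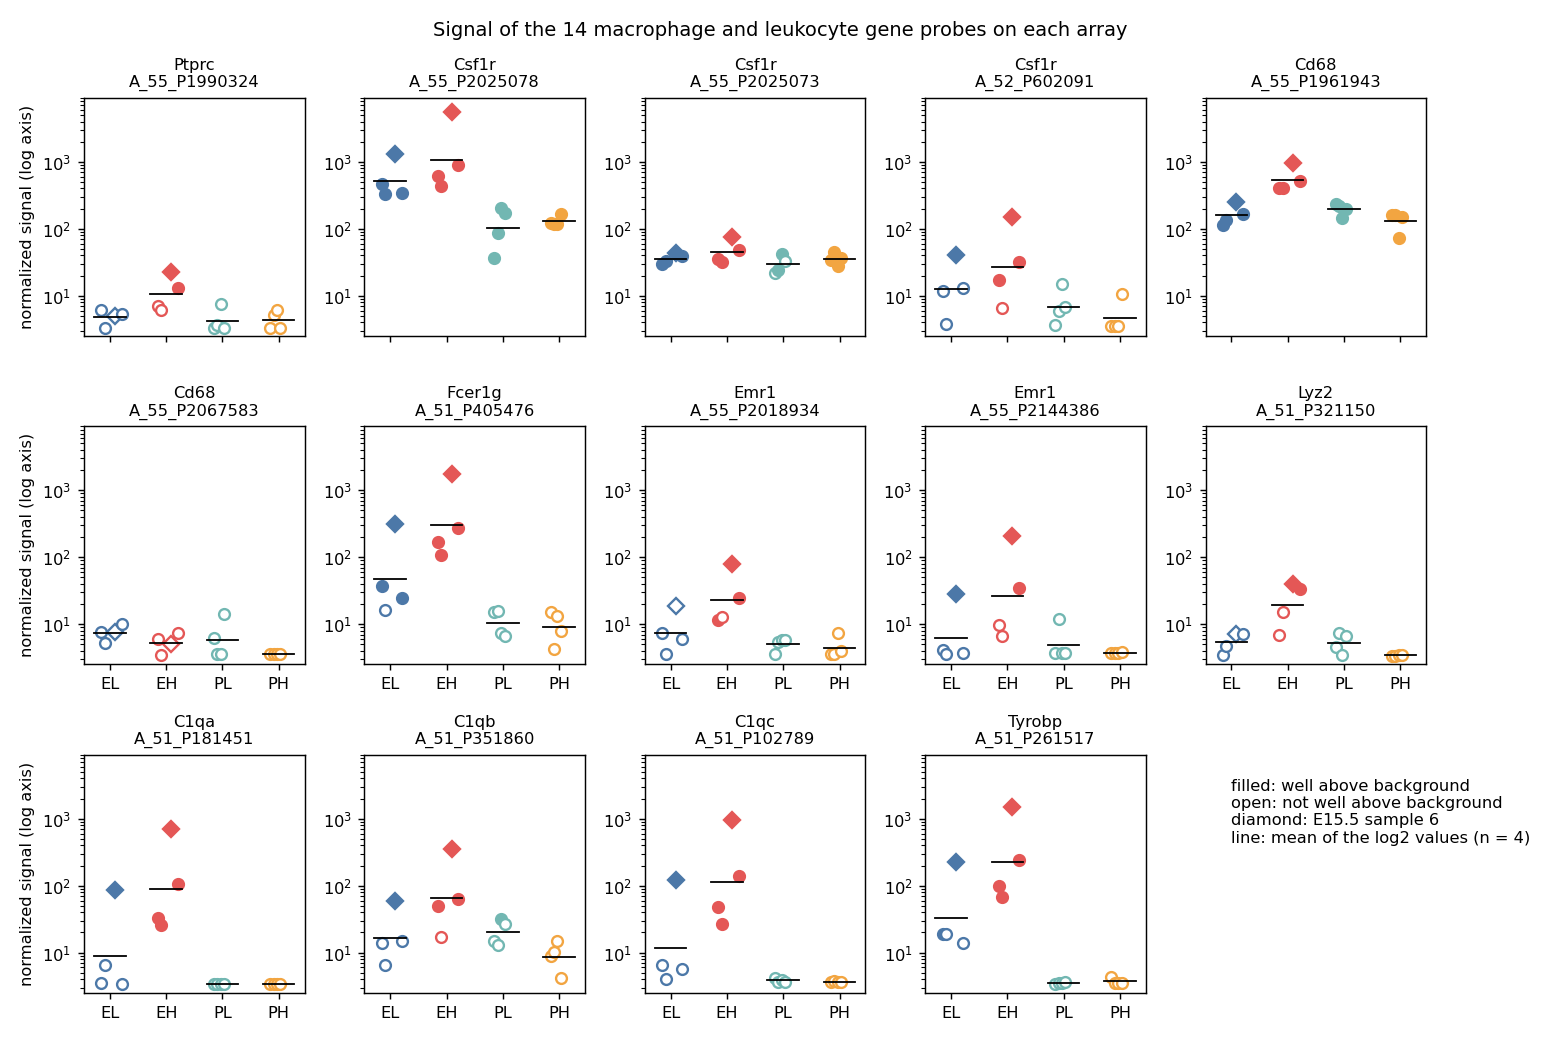
Normalized signal (log axis) of each of the 14 probes on each of the 16 microarrays, by group. Filled symbols were well above background, diamonds are the E15.5 samples numbered 6, and lines are means of the log2 values (n = 4); in 11 panels the diamond is the highest symbol of both EL and EH, and in the Tyrobp, C1qa and C1qc panels all 8 P2 symbols are open.

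How many of the probes gave a signal differed between the groups. In EL, 3 of 14 probes passed the background flag on all 4 microarrays and 4 on none. In EH, 7 probes reached this on all 4 microarrays and 1 on none. In PL and PH, 2 and 3 probes reached it on all 4, and 10 and 11 probes on none. Over all probes of the microarray the share that passed on all 4 was 35.7% for EL and 37.7% for EH, and at P2 it was 33.3% for PL and 34.8% for PH. The single microarrays ran from 3 probes in EL 3 to 13 in EH 6 and EH 8 at E15.5, and from 2 to 4 probes at P2. The probes that stayed well above background at P2 were 2 of the 3 Csf1r probes and 1 of the 2 Cd68 probes, with 1 PL microarray of C1qb besides.

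The adaptor Tyrobp was at 18.9, 19.1, 222.5 and 13.7 in EL 2, EL 3, EL 6 and EL 8. In EH 2, EH 3, EH 6 and EH 8 it was at 100.1, 68.3, 1492 and 239.8. EL 6 exceeded EH 2 and EH 3, so the groups overlapped, but within each sample number EH was higher. The ratio was 5.29 in sample 2 and 6.71 in sample 6, and at least 3.57 and 14.5 in samples 3 and 8, where EL was not well above background. The log2 fold-change of EH over EL was 2.78 ± 0.92 (SE, limma adjusted p = 0.0925), which was not called, and with the sample number as a block it was 2.78 ± 0.32 (limma adjusted p = 0.0023), which was called. Without both samples 6 it was 2.80 ± 0.34 (limma adjusted p = 0.000527). At P2 all 8 values lay between 3.45 and 4.38, and 0 of 8 were well above background. Tyrobp was at least 12.5-fold higher in EH than in PH (limma adjusted p = 0.000377; without both samples 6 at least 6.67-fold, limma adjusted p = 2.58e-06). For EL over PL the bound was 1.67-fold (limma adjusted p = 0.0232), with 2 of 4 EL microarrays well above background. For such a bound, the mean log2 signals of the 2 groups were compared. Signals of the dimmer group under the lowest signal still well above background on their microarray were first raised to it. Where some microarrays of the brighter group were not well above background, the bound rests partly on those signals and is no strict limit. Without EL 6 the difference of PL against EL was −2.29 ± 0.76 in log2 and was no longer called (limma adjusted p = 0.0567). It was also not called with normexp background correction or with a floor at the lowest signal well above background. Over the alternatives its log2 value ran from −3.63 to −0.80. Without both samples 6 it was −2.28 ± 0.32 and was called (limma adjusted p = 0.000404). PL was not well above background, so these log2 values depend on the PL signals there, and without both samples 6 no bound above 1 was left.

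Fcer1g, the gamma chain of Fc receptors, was also highest in sample 6 of both E15.5 fractions. It was at 37.3, 16.3, 315.4 and 24.7 in EL and at 166.6, 108.1, 1749 and 276.8 in EH, and the ratio of EH to EL was 4.47, 5.55 and 11.2 for samples 2, 6 and 8 and at least 6.39 for sample 3, where EL was not well above background. EL 6 alone overlapped with EH. The log2 fold-change was 2.71 ± 0.94 (limma adjusted p = 0.114), and with the block it was 2.71 ± 0.43 (limma adjusted p = 0.00847). Without both samples 6 it was 2.80 ± 0.55 (limma adjusted p = 0.0101). PL ranged from 6.76 to 15.99 and PH from 4.31 to 15.1, with no microarray well above background. Fcer1g was at least 17.0-fold higher in EH than in PH (limma adjusted p = 0.00154), and at least 9.59-fold without both samples 6 (limma adjusted p = 0.000166). For EL over PL the bound was 2.40-fold and the adjusted p was 0.149 (limma), and 1.27-fold and 0.141 without both samples 6. All 4 EL values were above all 4 PL values, as held for 10.5% of all probes. EL 3 and every PL value were not well above background, so the order between these was not measured.

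The complement C1q chains had higher signals in EH than in EL in every sample number, but among the EL samples only EL 6 was well above background. In sample 6, EH exceeded EL by 8.21-fold for C1qa, 6.12-fold for C1qb and 8.04-fold for C1qc. In the other numbers EL gave a limit, and EH was at least 1.54-fold (sample 3) to 6.48-fold (sample 8) higher for C1qa and at least 1.58-fold to 8.55-fold higher for C1qc. For C1qb it was at least 3.44-fold and 3.87-fold higher in samples 2 and 8, and in sample 3 neither fraction was well above background. C1qa was at 3.46, 6.52, 85.4 and 3.38 in EL, where only EL 6 was well above background, and at 32.7, 26.0, 701.3 and 106.9 in EH, where all 4 were. C1qc was at 6.49, 4.06, 120.8 and 5.78 in EL and at 48.0, 26.7, 971.6 and 141.0 in EH, with the same microarrays well above background. C1qb was at 13.97, 6.45, 58.4 and 15.0 in EL and at 48.9, 17.3, 357.7 and 63.9 in EH, with 1 and 3 microarrays well above background. In all 3 genes EL 6 exceeded the 2 lower EH samples. EH over EL was 3.31 ± 1.04 in log2 for C1qa (limma adjusted p = 0.0749), 3.31 ± 1.08 for C1qc (limma adjusted p = 0.0892) and 1.99 ± 0.83 for C1qb (limma adjusted p = 0.21), so none of them was called. With the block all 3 were called, at an adjusted p of 0.00278, 0.000704 and 0.0171 (limma). Without both samples 6, C1qa and C1qc were called (limma adjusted p = 0.000554 and 0.000754), at bounds of 2.86-fold and 3.60-fold, and C1qb was not (limma adjusted p = 0.135).

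At P2, C1qb alone gave a signal above background. C1qa lay between 3.35 and 3.41 and C1qc between 3.64 and 4.23 on all 8 P2 microarrays, none of them well above background. Compared with PH, EH was at least 5.02-fold higher for C1qa and 6.46-fold for C1qc (limma adjusted p = 0.00525 and 0.00488). For C1qb, with 3 of 4 EH microarrays well above background, the bound was 3.72-fold (limma adjusted p = 0.0242). These bounds were 2.54-fold, 3.19-fold and 2.13-fold without both samples 6 (limma adjusted p = 6.64e-05, 6.33e-05 and 0.0239). The C1qb call was lost without EH 6, EH 8 or PH 5 (limma adjusted p = 0.0644, 0.0502 and 0.0744), with the methods' test, and with normexp background correction, where the log2 fold-change was −0.98. C1qb was at 15.1, 12.9, 31.7 and 26.3 in PL, and PL 4 was well above background. In PH it was at 8.91, 10.1, 15.1 and 4.14. The ranges overlapped, and PH against PL was −1.21 ± 0.83 in log2 (limma adjusted p = 0.513). PL against EL gave 0.26 ± 0.83 for C1qb (limma adjusted p = 0.939), −1.41 ± 1.04 for C1qa and −1.59 ± 1.08 for C1qc (limma adjusted p = 0.439 and 0.4), and none was called. Without EL 6 and EH 6 no EL or PL microarray was well above background for C1qa or C1qc, and the differences were −0.32 ± 0.40 and −0.46 ± 0.41 (limma adjusted p = 0.706 and 0.566), and 0.87 ± 0.56 for C1qb (limma adjusted p = 0.395).

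The bases before the start of C1qb and C1qc are shown because both of these neighboring genes were called higher in EH than in EL with the block and held the letters marked below. Their neighbor C1qa was called with the block too, but no promoter was given for it. Fcer1g, Lyz2 and Cd68 A_55_P1961943 were also called with the block, and their windows are not shown. The letters GAGGAA, or TTCCTC on the other strand, form the core that the macrophage factor PU.1 binds, and are in capitals. These windows are from RefSeq (GRCm38.p6), read 5′ to 3′ along the gene, which lies on the minus strand.
C1qb: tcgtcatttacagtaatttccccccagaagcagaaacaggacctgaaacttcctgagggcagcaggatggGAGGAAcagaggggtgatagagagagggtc
C1qc: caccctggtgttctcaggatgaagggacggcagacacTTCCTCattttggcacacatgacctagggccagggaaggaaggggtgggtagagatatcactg
The C1qb window is chr4:136886201-136886300 and ends at the last base before the start, with the letters 30 to 25 bases before it. The C1qc window is chr4:136893045-136893144, with the letters 193 to 188 bases before the start. Within 250 bases before the start, 4 of the 7 promoters given for these genes held these letters on either strand (1 of 2 of Ptprc, and those of C1qb, C1qc and Cd68), against 23.3% of all 32851 promoters. The promoters of Fcer1g and Lyz2 did not hold them in that window. This is a match of letters, and no measurement of binding was made.

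Among the 10 genes, Cd68 was the only one with an EH against EL difference that was called in the fit without the block and had both groups well above background. Its probe A_55_P1961943 was at 111.9, 137.1, 253.9 and 167.4 in EL and at 401.2, 407.9, 962.9 and 519.4 in EH, with no overlap, as held for 7.02% of all probes. The ratio within samples 2, 3, 6 and 8 was 3.585, 2.974, 3.793 and 3.103. EH exceeded EL by 1.74 ± 0.34 in log2 (limma adjusted p = 0.00481; exact permutation test, two-sided p = 0.0286, the smallest that 4 against 4 samples allow). Leaving out EL 2 gave 1.57 and leaving out EH 6 gave 1.46 in log2 (limma adjusted p = 0.0195 and 0.0138), both under the 3-fold limit. With normexp background correction the value was 1.42, which was under the limit too. The value without both samples 6 was 1.69 ± 0.30 (limma adjusted p = 0.00606). In P2 cells Cd68 was at 238.0, 220.2, 143.5 and 198.0 in PL and at 159.1, 162.7, 72.7 and 147.4 in PH, and the ranges overlapped, although PH was lower in each sample number. PH against PL was −0.61 ± 0.34 in log2, with a 95% confidence interval from −1.34 to 0.13 (limma adjusted p = 0.379). The difference between the stages in this contrast was −2.35 ± 0.48 (limma adjusted p = 0.0157). PH against EH was −2.05 ± 0.34 in log2 (limma adjusted p = 0.000642) and −1.77 ± 0.28 without both samples 6 (limma adjusted p = 0.00117), whereas PL and EL differed by 0.30 ± 0.34 (limma adjusted p = 0.658; 0.52 ± 0.28 and 0.297 without both samples 6).

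The second Cd68 probe did not follow the first. A_55_P2067583 was well above background on 0 of 16 microarrays, with signals from 3.51 to 14.4, and the log2 values of both probes correlated with r = 0.13 over the 16 microarrays. The probes were designed from different transcript records, and the Cd68 results rest on A_55_P1961943 alone. In RefSeq, Cd68 lies between Mpdu1 and Eif4a1 and overlaps no other protein-coding gene.

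Csf1r remained measurable in every sample through its probe A_55_P2025078. This probe was at 467.4, 332.8, 1325 and 347.5 in EL and at 614.7, 428.4, 5508 and 893.6 in EH. In each sample number EH was higher, by 1.32-fold, 1.29-fold, 4.16-fold and 2.57-fold, but the groups overlapped and the log2 fold-change of 1.04 ± 0.74 was not called (limma adjusted p = 0.545, and 0.233 with the block). PL was at 36.3, 85.7, 203.4 and 171.0 and PH at 121.1, 118.3, 117.3 and 168.9. All P2 values were below all E15.5 values of the same fraction, with a log2 fold-change of −3.04 ± 0.74 for PH against EH (limma adjusted p = 0.0105; −2.26 ± 0.50 and 0.00955 without both samples 6) and −2.34 ± 0.74 for PL against EL (limma adjusted p = 0.0403). The PL against EL call was lost when any 1 of EL 2, EL 3, EL 6, EL 8, EH 8, PL 2, PL 3 or the 4 PH samples was left out (limma adjusted p from 0.0511 to 0.126), and without both samples 6 the value was −1.90 ± 0.50 (limma adjusted p = 0.0212).

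The other Csf1r probes were dimmer. A_55_P2025073 ranged from 21.5 to 76.2 over all 16 microarrays and was called in none of the comparisons, and A_52_P602091 was well above background on 4 microarrays, EL 6, EH 2, EH 6 and EH 8, where it was at 40.8, 17.0, 151.1 and 32.4. The 3 probes correlated with each other at r = 0.77 to 0.89 over the 16 microarrays, which share their libraries. For A_52_P602091 the bound of EH over PH was 1.52-fold (limma adjusted p = 0.0683), and for A_55_P2025073 PH against EH was −0.36 ± 0.27 (limma adjusted p = 0.47). Without both samples 6 no bound above 1 was left for A_52_P602091 (limma adjusted p = 0.137), and A_55_P2025073 was at −0.11 ± 0.24 (limma adjusted p = 0.872). Pdgfrb and Hmgxb3 are the protein-coding neighbors of Csf1r in RefSeq, and neither overlaps it. The ligand Csf1 was at 87.5 to 113.3 in EL, 106.7 to 140.5 in EH, 97.2 to 120.7 in PL and 100.7 to 125.8 in PH, and the groups overlapped. Il34, the other ligand, was not well above background on all 4 microarrays of any group.

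Ptprc, Emr1 and Lyz2 were not well above background on most microarrays. Ptprc was well above background only in EH 6 and EH 8, at 22.61 and 13.04, and ranged from 3.26 to 7.49 on the other 14 microarrays. Its EH against EL difference was 1.13 ± 0.41 (limma adjusted p = 0.133, and 0.0591 with the block). Lyz2 was at 3.48, 4.78, 7.13 and 7.22 in EL and at 6.93, 15.0, 39.3 and 33.4 in EH, where EH 6 and EH 8 were well above background. The limma adjusted p of EH against EL was 0.0237, so Lyz2 was called, but EL gave only a bound. That bound was 1.18-fold and rests partly on EH 2 and EH 3, which were not well above background. In the fit without the block, Lyz2 was not called without both samples 6 (limma adjusted p = 0.0895), nor without EL 2, EL 3, EH 6 or EH 8 (limma adjusted p from 0.066 to 0.08). It was not called with normexp background correction or with a floor at the lowest signal well above background either. Over the alternatives its log2 value fell as low as 0.31. With the block it was called (limma adjusted p = 0.00663), also without both samples 6 (1.62 ± 0.29 in log2, limma adjusted p = 0.0323). At P2, Lyz2 ranged from 3.38 to 7.26 with no microarray above background, and the bound of EH over PH was 1.08-fold (limma adjusted p = 0.00141). The Lyz2 difference was still called without both samples 6 (limma adjusted p = 0.00717), with no bound above 1. With normexp background correction it fell to −0.48 in log2, and with a floor at the lowest signal well above background to −0.19 (limma adjusted p = 0.631), and it was called in neither. The Emr1 probe A_55_P2018934 was at 7.30, 3.64, 18.9 and 5.94 in EL and at 11.5, 12.8, 79.3 and 24.6 in EH, with 0 and 3 microarrays well above background. The bound of EH over EL was 1.40-fold (limma adjusted p = 0.121, and 0.00954 with the block, which called the difference). This difference was 1.51 ± 0.37 in log2 without both samples 6 (limma adjusted p = 0.0349), under 3-fold and not called. Against PH the bound of EH was 1.301-fold (limma adjusted p = 0.0101; 0.00398 without both samples 6, with no bound above 1). PH against EH was called, but the call was lost with normexp (−0.43 in log2) and with the floor (−0.42, limma adjusted p = 0.359). The second Emr1 probe, A_55_P2144386, correlated with it at r = 0.92 and was highest in EL 6 (28.3) and EH 6 (209.3), and its P2 values, of at most 11.8, were not well above background. Its EH against EL difference was 2.06 ± 0.95 (limma adjusted p = 0.272), was called with the block (limma adjusted p = 0.0379), and was not called without both samples 6 (limma adjusted p = 0.112). PH against EH was not called for this probe (limma adjusted p = 0.059), but was without both samples 6 (limma adjusted p = 0.0431), with 75th percentile scaling, and when EL 6, EH 2 or EH 3 was left out.

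Over the 14 probes, the signal of EH exceeded that of EL in all 4 sample numbers for 12, against 12.3% of all probes. The exceptions were Csf1r A_55_P2025073 with 3 of 4 and Cd68 A_55_P2067583 with 0 of 4. Of the 56 pairs of a probe and a sample number, both fractions were well above background in 22, EH alone in 21 and neither in 13. The fit without the block called 2 of 14 probes higher in EH and 0 lower, against 1.17% of all probes called higher and 0.454% lower. The fit with the block called 9 higher, against 1.21%. Without both samples 6, 5 were called, against 1.08%, and 6 with the block, against 0.997%. Single samples decided the count of the fit without the block, which was 0 without EL 2 and without EH 6, 1 without EL 3 or EH 8, 4 without EH 3 and 7 without EL 6. The median log2 fold-change of the 14 probes was 1.79, beside −0.02 over all probes, and it includes signals not well above background.

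**Figure D2:**
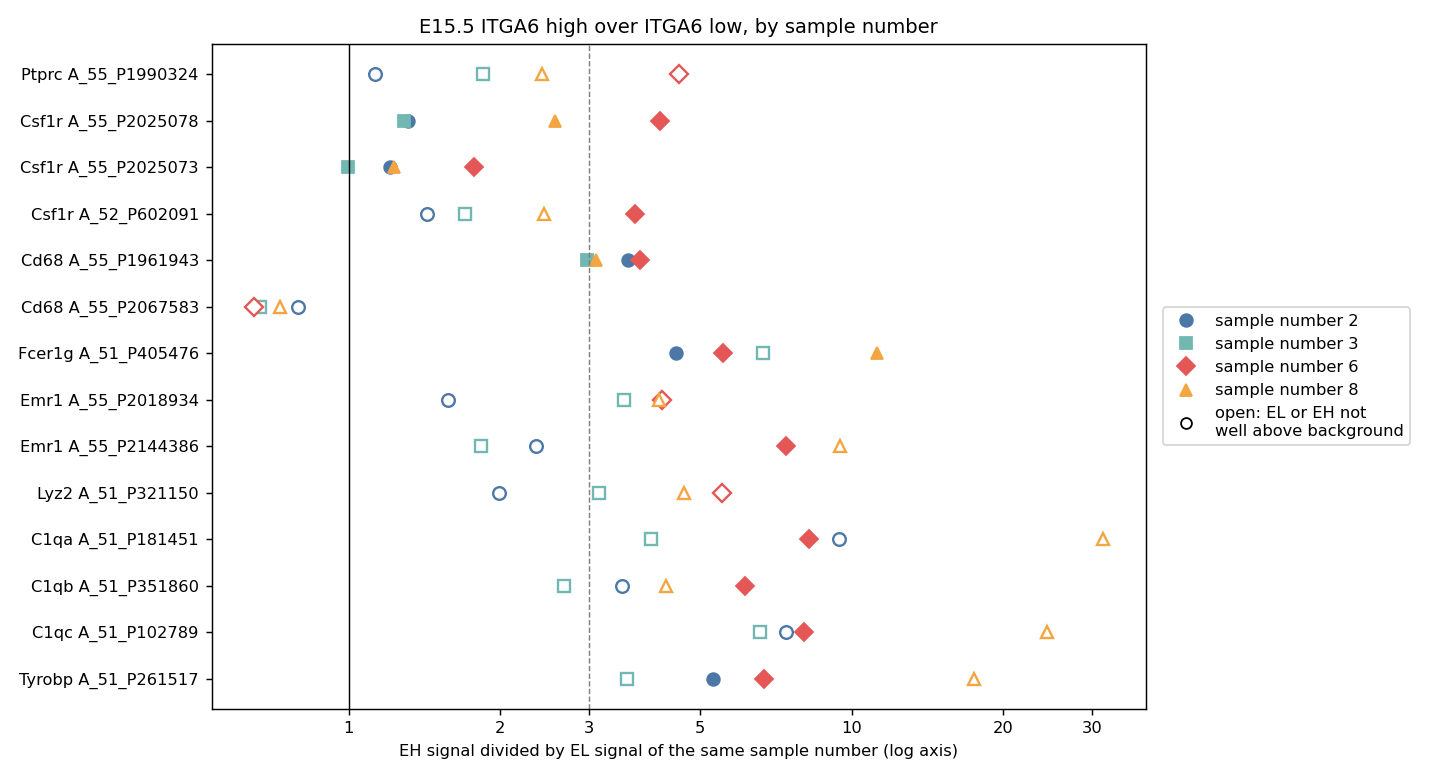
Signal of EH divided by that of EL (log axis) for each of the 14 probes, with 1 symbol per sample number and lines at 1 and at 3. Filled symbols are the 22 pairs with both fractions well above background; the 4 symbols lie right of the line at 1 for 12 probes, and the place of an open symbol depends on a signal not well above background.

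The E15.5 slides were compared too, since EL and EH lay on both. With slide as a block 8 of the 14 probes were called higher in EH, against 1.27% of all probes. On the slide with EL 2, EL 8, EH 2, EH 3 and EH 8 alone, EH minus EL in log2 was 2.87 for Tyrobp, 2.49 for Fcer1g, 3.72 for C1qa, 3.21 for C1qc, 1.39 for C1qb and 1.68 for Cd68 A_55_P1961943. On the slide with EL 3, EL 6 and EH 6 the same differences were 4.52, 4.61, 4.89, 5.45, 4.204 and 2.37, where EH 6 is the only EH sample, so this slide has no value free of EH 6.

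Between the fractions of P2 none of the 14 probes was called, with limma or with the methods' test, and 0 of 14 had an unadjusted limma p under 0.05. Over all probes 1.73% were called higher and 0.916% lower in PH. The median log2 fold-change was −0.20, beside −0.01 over all probes, and 10 of 14 were negative. Since 10 probes in PL and 11 in PH were above background on no microarray, this contrast was measured on both sides for Cd68 and Csf1r only. The interval for Csf1r A_55_P2025078 ran from −1.26 to 1.95 in log2, so a difference of over 3-fold lay inside it. The interaction of fraction and stage was called for 1 probe, Cd68 A_55_P1961943, against 0.602% of all probes called lower. With the sample numbers as a block it was called for 8 probes, all lower, against 0.735%, although the numbers at P2 did not all deviate together. When both samples 6 were left out it was called for 4 probes, against 0.53%, and with the block for 2, Cd68 A_55_P1961943 and C1qc, against 0.481%.

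Between the stages, 9 of 14 probes were called lower in PH than in EH, against 2.1% of all probes, and 0 were called higher, against 1.3%. Of the 14, 10 had all 4 PH values under all 4 EH values, against 9.54% of all probes. Without both samples 6, 10 were called, against 1.97%. Between PL and EL, 2 were called lower, Csf1r A_55_P2025078 and Tyrobp, against 2.15% of all probes, and 0 higher, against 1.6%. Of the 14, 3 had no overlap, against 10.5%. Without EL 6 none of the 14 was called in this contrast, and without both samples 6 the same 2 probes were called, against 2.14%. The median log2 fold-change was −2.67 for PH against EH and −0.45 for PL against EL, beside 0.03 and 0.01 over all probes. On no microarray were 11 probes in PH and 10 in PL well above background, so these medians depend on signals there and are no exact sizes.

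Further leukocyte genes came from 9 lists of 140 genes. A probe was found for 138 of them, and 56 passed the background flag throughout at least 1 group. In EH against EL, 9 of the 138 were called higher and 0 lower, against 1.17% and 0.454% of all probes, and 21 higher with the block, against 1.21%. With the block and without both samples 6, 11 were called, where 0.997% of all probes were called higher. Leaving out 1 sample moved the count of 9 to between 4 and 18. In PH against EH 31 were called lower, against 2.1%, and 0 higher, and in PH against PL 2 lower, a share close to the 0.916% of all probes, and 0 higher. In PL against EL 14 were called lower, against 2.15%, and 2 higher, Ptpn6 and Cd59a, against 1.6%. Of 25 macrophage genes, 11 were well above background on all 4 EH microarrays, 4 in EL, and 3 in each of PL and PH, and 20 were so on no P2 microarray. The macrophage genes not well above background on any E15.5 microarray were Cd163, Timd4, Siglec1, Fcgr1, Clec4a3, Cd209f and Hpgds.

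**Figure D3:**
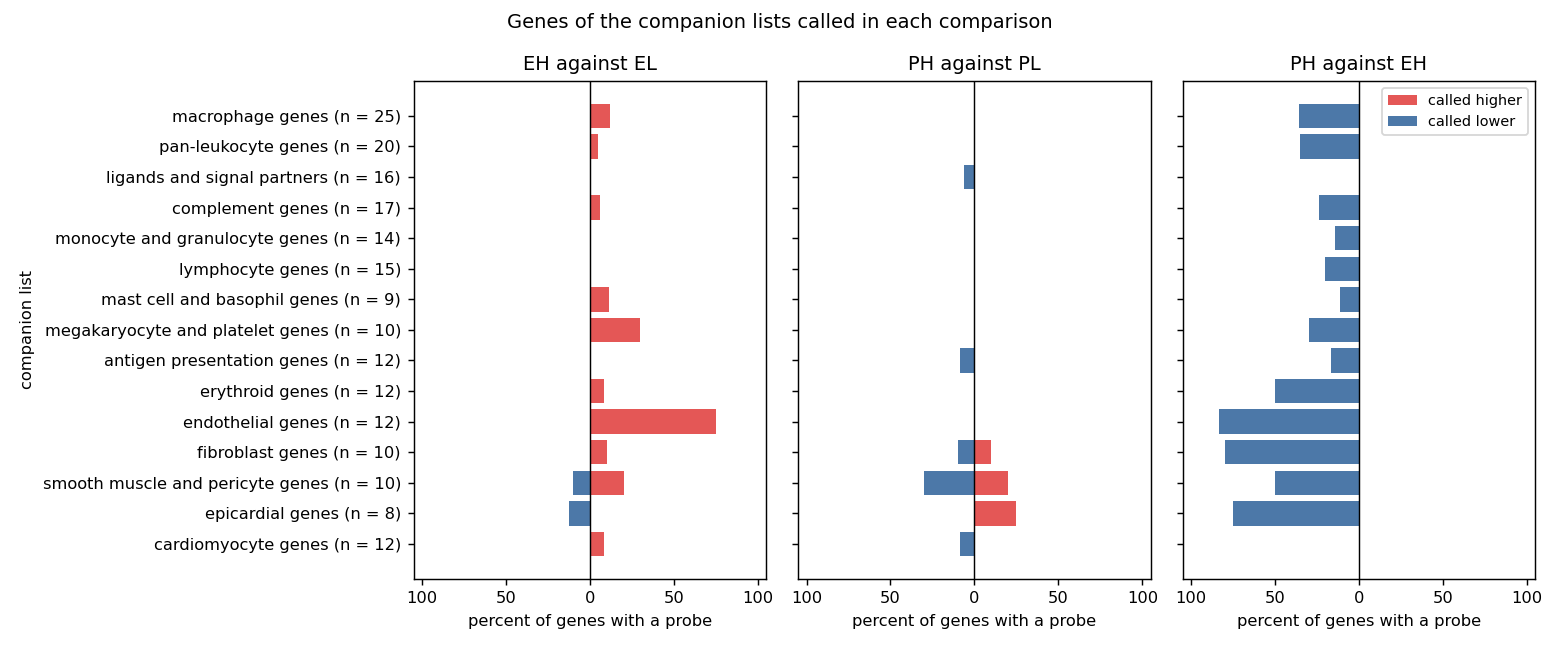
Percent of the genes with a probe in 15 lists that were called higher (right) or lower (left) in 3 comparisons, by limma at an adjusted p of at most 0.05 and at least 3-fold. In EH against EL the endothelial list has the longest bar, with 9 of 12 genes higher, and in PH against EH no bar points to higher values.

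Among the 25 macrophage genes, 3 were called higher in EH and 11 with the block, against 1.17% and 1.21% of all probes. Mrc1, the mannose receptor CD206, was at 4.001, 4.201, 50.3 and 4.29 in EL and at 47.1, 26.1, 454.0 and 67.2 in EH (limma adjusted p = 0.0387), and 1 EL and 4 EH microarrays were well above background. Lyve1, the hyaluronan receptor found on a subset of heart macrophages and on lymphatic endothelium, was at 3.499, 3.497, 21.2 and 3.497 in EL and at 31.6, 13.9, 162.4 and 33.3 in EH (limma adjusted p = 0.0156; 1 EL and 3 EH microarrays well above background). The factor Irf8 was at 25.3, 20.3, 59.9 and 20.0 in EL and at 88.3, 61.2, 245.0 and 88.6 in EH (limma adjusted p = 0.0168). EL 6 stood above the other EL samples for each of these genes, and EH 6 above the other EH samples. The 3 brightest macrophage genes, Itgam, Lgmn and Mertk, were not called between the fractions. Itgam, an integrin chain, was at 2525 to 3127 in EL, 3232 to 4247 in EH, 4400 to 11760 in PL and 2979 to 3287 in PH, and the interaction was called for it, and all PL values were above all PH values. Lgmn, a lysosomal protease, was at 3573 to 3688 in EL and 4968 to 6598 in EH, a rise of 0.58 in log2 (limma adjusted p = 0.00254) that was under 3-fold. Mertk ranged from 25.0 to 83.9 with overlap of all groups.

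Of 20 pan-leukocyte genes, 9 were above background on all 4 EH microarrays. The phosphatase Ptpn6 was called higher in EH, with 8.33, 18.2, 25.6 and 8.84 in EL and 55.9, 51.2, 163.8 and 45.3 in EH (limma adjusted p = 0.00526), with 1 EL and 4 EH microarrays well above background, and it was at 32.0 to 79.8 in PL and 28.6 to 51.7 in PH. In PL it was called higher than in EL (limma adjusted p = 0.00646), with 4 PL microarrays well above background, and its interaction of fraction and stage was called as well. Lcp1, an actin-bundling protein, was at 40.5 to 82.8 in EL, 106.4 to 293.2 in EH, and between 4.12 and 28.6 at P2. Ptpn18 was at 345.3 to 475.0 in EL and 888.8 to 1755 in EH, a log2 fold-change of 1.55 that was just under the limit, and at 149.6 to 197.0 in PL and 241.0 to 400.3 in PH. Among ligands and signal partners 0 of 16 were called in EH against EL, where 1.17% of all probes were called higher and 0.454% lower. Syk, the kinase that binds the phosphorylated adaptors, was at 445.2 to 522.4 in EL, 695.4 to 835.9 in EH, 720.5 to 887.8 in PL and 857.9 to 1280 in PH. Grb2 was at 771.1 to 1256 over all samples, and Plcg2, a phospholipase, was called lower in PH than in PL (log2 fold-change −1.81, limma adjusted p = 4.86e-08).

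Of 17 complement genes, Cd93 was called higher in EH, against 1.17% of all probes. It was at 28.3 to 153.4 in EL and 565.5 to 3596 in EH. CD93 is found on endothelial cells as well as on myeloid cells, and EH 6 and EH 8 were at 3596 and 3078. C3, the central complement component, Cd59a, an inhibitor of the membrane attack complex, and C1qbp, a mitochondrial protein that also binds C1q, were the brightest of the list and were not called in either fraction contrast. Of 14 monocyte and granulocyte genes 0 were called between the fractions. Over all probes 1.17% were called higher and 0.454% lower in EH, and 1.73% higher and 0.916% lower in PH. With the block 2 of the 14 genes were called in EH against EL, where 1.21% of all probes were called higher. The brightest of this list were Csf3r, Elane and Camp. Csf3r, the receptor for granulocyte colony-stimulating factor, was at 6223 to 16840 over all 16 microarrays, and all groups overlapped. Camp was at 127.4 in EL 6 and 499.8 in EH 6 and at 19.0 to 35.0 on the other 14. Among 15 lymphocyte genes, with Cd3e, Cd4 and Nkg7 as the brightest, 0 were called between the fractions, against the same shares of all probes. Of 12 antigen presentation genes, H2-Eb1, a class II chain, was called lower in PH (18.2 to 46.3) than in PL (101.6 to 148.9), against 0.916% of all probes. Cd74 was at 24.7 to 53.2 in EL and 43.4 to 133.4 in EH, and Siglech was at 6970 to 21960 on all 16.

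Of 10 megakaryocyte and platelet genes 3 were called higher in EH, against the same 1.17%. Pf4, the platelet factor 4 that megakaryocytes and some fetal macrophages express, was at 15.4, 6.60, 238.2 and 18.0 in EL and at 191.5, 111.7, 1619 and 263.2 in EH (limma adjusted p = 0.0333; 3 EL and 4 EH microarrays well above background). Gp9 and Treml1, both platelet surface proteins, were called higher in EH too, at 14.4 to 42.8 in EH 3, EH 6 and EH 8 for Gp9, with a bound of 1.14-fold for Gp9 and 1.53-fold for Treml1, while Gp1bb was not called and Itgb3 was at 90.8 to 172.4 in EL and 42.9 to 90.2 in EH. In the mast cell list Kit was called, at 8.77 to 15.0 in EL and 21.4 to 87.0 in EH (at least 2.86-fold higher), whereas Tpsb2 and Hdc were not, and Hdc was highest in EL 6 (95.5) and EH 6 (212.5). Of the 12 erythroid genes, Tal1 was the 1 called in EH against EL, where 1.17% of all probes were called higher. It was at least 3.40-fold higher in EH. Hba-a1, Hbb-b1 and Hbb-y, the brightest of the erythroid list, were not called in this contrast (limma adjusted p = 0.55, 0.616 and 0.923), and each was called lower in PH than in EH.

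Of 12 endothelial genes, 9 were called higher in EH than in EL, against 1.17% of all probes, and 10 lower in PH than in EH, against 2.1%. Plvap, a protein of endothelial diaphragms, was at 13.8, 27.6, 32.7 and 29.9 in EL and at 252.9, 222.1, 905.0 and 487.2 in EH. The summed signal of the 12 genes was 2014, 2036, 2338 and 2222 in EL and 5610, 4580, 13008 and 11923 in EH, and the Egfl7 probe had the highest mean log2 signal over the 16 microarrays. EH 8 was thus close to EH 6 in endothelial signal, whereas for Tyrobp, Fcer1g and the C1q chains EH 8 was nearer to EH 2 than to EH 6. The others called higher in EH were Cdh5, Tie1, Emcn, Flt1, Esam, Eng, Cldn5 and Egfl7, most of them adhesion molecules or receptors of vessels, and Cdh5 was at least 9.003-fold and Tie1 at least 7.04-fold higher. The interaction was called lower for Cdh5, Tie1, Emcn, Eng and Plvap, whereas Kdr, the receptor for VEGF, was at 1037 in EL and 834.2 in EH and was not called. Each of the 12 was well above background on at least 1 E15.5 microarray, and Cdh5, Tek, Tie1, Emcn and Esam on no P2 microarray. Of 10 fibroblast genes, 8 were called lower in PH than in EH, against 2.1% of all probes, and the brightest, Col1a2, was at 5635 to 10290 in EL and 2611 to 4772 in EH. Dcn, a matrix proteoglycan, was not called between the fractions. Fbln1, a matrix protein, was called higher in EH than in EL and in PH than in PL (log2 fold-change 2.45 and 4.84) and in the interaction, and Postn was lower in PH than in PL. Of 10 smooth muscle and pericyte genes, Rgs5 (at least 2.09-fold) and Kcnj8 were called higher in EH and Cspg4 lower in EH and in PH. Tagln and Cnn1 were called higher in PH than in PL, and Acta2 and Abcc9 lower, and Acta2, Rgs5, Abcc9 and Cnn1 had a called interaction. Of 8 epicardial genes, Lrrn4 was called lower in EH, Wt1 and Krt19 were called higher in PH than in PL (at least 1.42-fold and 3.12-fold; 1.73% of all probes were called so), and the interaction was called for all 3, while Msln and Tbx18 were not called between the fractions. Of the cardiomyocyte genes, Myh6, the alpha myosin heavy chain, was called higher in EH and Pln, the inhibitor of the calcium pump, lower in PH, both with a called interaction, and Actc1 and Tnnt2 were not called between the fractions. The part of these cell types in the macrophage results was not tested.

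The genes whose profile over the 16 microarrays was most like the mean profile of Csf1r, Cd68, Fcer1g, C1qa, C1qc and Tyrobp were F13a1, Cd14, Ifi202b, Aif1, Cd83, Cx3cr1, Cyth4, Srgn, Bcl2a1d and Stab1, with r from 0.99 to 0.97 among 15624 genes compared. The arrays share their slides and their normalization, and these values are a description. F13a1, a chain of coagulation factor XIII found in monocytes and macrophages, was at 127.2 in EL 6 and at 97.8, 39.8, 839.5 and 103.9 in EH, and between 3.23 and 5.75 at P2. Cx3cr1, the fractalkine receptor, was at 27.99, 5.73, 232.3 and 26.3 in EL, at 130.1, 44.7, 1560 and 198.5 in EH and between 4.45 and 5.71 at P2. Stab1, a scavenger receptor, was highest in EH 6 (1096) and was at 123.3 to 346.3 in the other EH samples. Over the deviations from the group means, Mpeg1 and Tlr2 took the places of Cx3cr1 and Stab1. Among the 6 profile genes themselves, each was compared with the mean of the other 5, which gave r = 0.99 for C1qc, 0.98 for Tyrobp and C1qa, 0.97 for Fcer1g, 0.90 for Csf1r and 0.82 for Cd68.

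**Figure D4:**
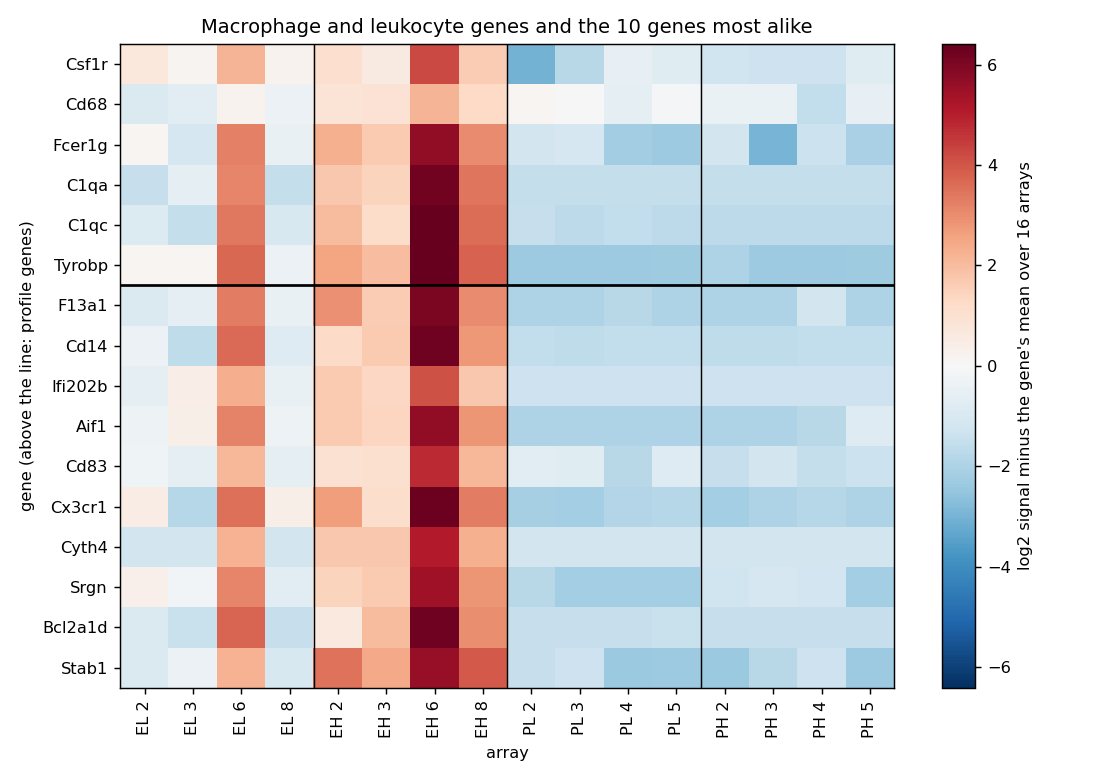
Log2 signal minus the mean of the gene over the 16 microarrays, for the 6 profile genes (above the line) and the 10 genes most alike (below it). Red is above and blue below the mean; EH 6 is the darkest red column in all 16 rows, EL 6 is the reddest of the EL columns, and the P2 columns are blue or near 0.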

How the data were processed

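RNA of 16 samples was measured on one-color Agilent whole mouse genome microarrays. The authors deposited Feature Extraction 10.7.3.1 output per sample, with signal intensity, background and quality flags (other columns) per spot, and a table of quantile-normalized log2 values. The processed intensity is already background-subtracted, and the deposited log2 values correlated with those used here at r above 0.99. Control spots and spots flagged as outliers were left out, spots of a probe were averaged, and probes were quantile normalized, transformed to log2 and fitted with limma 3.58.1 in R 4.3.3 (1 mean per group, empirical Bayes, Benjamini-Hochberg over 55681 probes). A probe was well above background where most of its spots were flagged so. Precision is limited by the 4 microarrays per group. EL and EH of the same number deviated together (r = 0.256, 0.189, 0.450 and 0.379, all above 0.1), so the numbers were taken as pairs, which did not hold for all P2 numbers. The fits were tested on simulated data. Figures were made with matplotlib 3.10.9 in Python 3.11.15.

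All probes of the 10 genes and the 10 genes most alike were named. In each list, the 3 brightest genes that passed the background flag throughout a group were named, by the brightest probe. Every gene called between fractions or in the interaction was named too. Genes outside this rule were named as well, among them Csf1, Il34 and the macrophage and erythroid genes not well above background at E15.5. The genes, lists and tests were chosen with earlier results of these data known. Spi1 and Ly6c2 were not analysed here.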

Additional observations from a re-analysis of the deposited data

Results flagged for a closer look

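Within the groups of 4 samples, 5 of the 30 probe and group pairs tested had 1 sample whose gap to its nearest neighbor took more of the range than Dixon's 95% limit allows, a limit that chance passes in about 1 of 20 groups. EL 6 lay above the other EL samples for Emr1 A_55_P2144386 (gap 0.94 of the range), Tyrobp (0.882) and C1qc (0.862). The other EL signals of this Emr1 probe and of C1qc were not well above background, nor were EL 3 and EL 8 for Tyrobp. These gaps therefore rest on signals near the background, where the rate of 1 of 20 may not hold. PH 5 lay above the other PH samples for Csf1r A_55_P2025078 (0.912), and PH 4 below them for Cd68 A_55_P1961943 (0.877). The difference between EH and EL differed from that between PH and PL for Cd68 A_55_P1961943, by −2.349 in log2 (limma adjusted p = 0.0157), with EH above EL in 4 of 4 sample numbers.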

How the results depend on the processing

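Of the single-probe values under the alternatives, 1233 kept their direction and side of the threshold, 59 passed it newly, 33 no longer passed it, 10 moved and 18 reversed. With 75th percentile scaling the median log2 fold-change of all probes was −0.18 (EH against EL), −0.14 (PH against PL), 0.19 (PL against EL) and 0.19 (PH against EH), in place of −0.02, −0.01, 0.01 and 0.03. The causes of the changes below were not tested.

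With normexp background correction the probes called fell from 907 to 207 (EH against EL), 1476 to 418 (PH against PL), 670 to 233 (interaction), 2089 to 461 (PL against EL) and 1890 to 426 (PH against EH), and a floor at the lowest signal well above background gave 601, 874, 1148 and 1138 in the 4 pairwise contrasts, in the same order. Of the 14 probes, EH against EL called 2 and with normexp 0, with detected probes only 5, with the floor 6, with slide as a block 8, with the replicate block 9, without both samples 6 5, and with the replicate block and without both 6. The interaction called 1, and 2 with 75th percentile scaling, 3 with the slide block, 8 with the replicate block, 4 without both samples 6 and 2 with both changes. PL against EL called 2, and 1 with normexp and 1 with the floor. PH against EH called 9, and 6 with normexp, 7 with the floor, and 6 with detected probes only, which leaves out Lyz2, C1qb and Emr1. Of the companion leukocyte genes, EH against EL called 9, and 2 with normexp and 24 with the slide block. It called 21 with the replicate block, 15 without both samples 6 and 11 with both changes. PH against PL called 2, and 1 with normexp and 4 with the replicate block, without both samples 6, or with both changes. The interaction called 2, and 4 with 75th percentile scaling, 6 with the slide block, 9 with the replicate block, and 5 without both samples 6 with or without the replicate block. PL against EL called 16, and 3 with normexp and 5 with the floor, and PH against EH called 31, and 6 with normexp. With the weaker flag for a positive and significant signal, 8 probes were detected on all 4 microarrays in EL, 13 in EH and 5 in PL, in place of 3, 7 and 2.

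Leaving out 1 sample in turn, the 14 probes gave 0 to 7 calls in EH against EL, 0 in PH against PL, 1 to 2 in the interaction, 0 to 2 in PL against EL and 8 to 11 in PH against EH. The companion genes gave 4 to 18, 2 to 3, 0 to 4, 13 to 20 and 27 to 38. P2 samples of the same number did not all deviate together (r = 0.375, 0.176, −0.031 and 0.542), and with the replicate block 0 of the 14 probes were called in PH against PL, where Cd68 A_55_P1961943 was −0.61 ± 0.11 (limma adjusted p = 0.0104), under 3-fold.

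The reversed log2 values were near the background or small. With the floor, Ptprc was −0.24 in EH against EL, 0.11 in the interaction and 0.37 in PH against EH. Csf1r A_55_P2025078 was −0.15 to 0.68 in PH against PL and −1.19 to 0.093 in the interaction with 1 sample left out, reversed without PL 2 and without EH 6. Csf1r A_55_P2025073 was −0.065 in PH against PL with normexp, and in the interaction 0.01 to 0.17 without 1 of EL 2, EH 6, PL 4 or PH 4, and 0.084 without both samples 6 with or without the replicate block. In PL against EL, Emr1 A_55_P2144386 was 0.088 with the floor, −0.76 to 0.39 with 1 sample left out (reversed without EL 6) and 0.39 without both samples 6, and C1qb was −0.027 with normexp, −0.014 with the floor and −0.20 to 0.86 with 1 sample left out, reversed without EL 3.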
